A study of Mus musculus with 8 samples.

Results

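The genes described here encode 7 proteins of the contractile apparatus that myofibroblasts share with smooth muscle: Acta2, Tagln, Myl9, Tpm1, Tpm2, Cnn1 and Cald1. They were taken by symbol from the 19024 gene symbols of 8 single-cell expression matrices and were followed in fibroblasts, malignant cells and endothelial cells of each tumor. Acta2 and Tagln had been picked because they were lower in fibroblasts of Atg7-deleted hosts in the same libraries. The contrast of host genotypes within fibroblasts is therefore given as a description, without a test.

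Each library came from a tumor of MB49, a mouse urothelial cancer line injected under the skin of the flank. Wild-type hosts were C57BL/6 mice of the genotype UbcreERT2/+;Atg7+/+ (libraries 1, 2, 5 and 6), and deleted hosts were UbcreERT2/+;Atg7f/f (libraries 3, 4, 7 and 8). Both carried the tamoxifen-inducible Cre driven by a ubiquitin promoter, and the labels describe tamoxifen on 4 days, injection 1 week later at 2 tumors per mouse, and collection after another 3 weeks. Atg7 encodes an enzyme needed to form autophagosomes, and the study asked how its loss in the host, not in the tumor cells, altered the tumor. Host age is not stated in the labels. Nor do they say which tumors shared a mouse, so 2 libraries may come from 1 animal, in which case the p-values below are too small.

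Myofibroblasts are fibroblasts that have assembled stress fibers, and they appear in healing wounds and in tumor stroma. Smooth muscle actin, the product of Acta2, is their usual marker. Contraction is switched on when the regulatory light chain of myosin, encoded in part by Myl9, is phosphorylated, and tropomyosins, calponin and caldesmon set how myosin reaches the actin filament. Transcription of these genes is driven by SRF and its cofactors of the myocardin family, which bind a DNA element called the CArG box, and by TEAD factors at MCAT elements, downstream of TGF-beta and YAP signals.

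In mm10, with GENCODE M21, Acta2 lies on chromosome 19 from 34241090 to 34255590 and Tagln on chromosome 9 from 45929619 to 45936058, both on the minus strand. Myl9 spans chromosome 2 from 156775420 to 156781658 on the plus strand. Tpm1 (chromosome 9, 67022590 to 67049406) and Tpm2 (chromosome 4, 43514711 to 43523765) are on the minus strand, and Cnn1 (chromosome 9, 22099216 to 22109630) and Cald1 (chromosome 6, 34598500 to 34775473) on the plus strand. Tpm1 has 16 annotated start sites of protein-coding transcripts and Cald1 has 10, and the matrices hold 1 value per symbol, so the smooth muscle and non-muscle isoforms of these genes were summed.

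The CArG box is the element through which SRF acts on this gene family, and among the 6 members found in the RefSeq promoter table (build GRCm38.p6; 250 bases before to 50 after the start site) only Acta2 and Myl9 held a match to it. Their matches are printed in capitals, 5′ to 3′. For Myl9 the printed bases end where GENCODE places the first exon (chr2:156775214-156775419, plus strand). For Acta2 each match is shown with 10 bases on either side (chr19:34255438-34255467 and chr19:34255388-34255417, minus strand), because GENCODE extends the first, untranslated exon of a transcript across this region.
Myl9: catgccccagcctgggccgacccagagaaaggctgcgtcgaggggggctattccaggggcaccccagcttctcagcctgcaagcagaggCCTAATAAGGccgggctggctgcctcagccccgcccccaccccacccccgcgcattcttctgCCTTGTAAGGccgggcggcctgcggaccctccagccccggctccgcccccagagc
Acta2, distal match: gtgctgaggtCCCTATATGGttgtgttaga
Acta2, proximal match: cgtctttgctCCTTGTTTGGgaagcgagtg
Positions count from the RefSeq start site, with the base before it as -1. The first match in Myl9, at -161, is a full CArG box, and the one at -99 has a single G or C among the 6 middle bases. Both Acta2 matches, at -84 and -34, have 1 such G or C. On both strands, a full CArG box was present in 1.63% of the 32851 promoters of this length and one with at most 1 G or C in 9.98%. The MCAT element CATTCC was present on either strand in 14.7% of them, and among the members in Acta2 (-146), Tpm1 (-56) and 1 of the 2 Cald1 promoters (-153). It does not overlap a CArG match in any of them. No match to either element was found in these windows of Tpm2 and Cnn1.

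The matrices held 29496 cells, with 4371773 to 59235799 UMIs (unique molecular identifiers, each counting 1 captured RNA molecule) per library. A cell was taken as a fibroblast when Col1a1, Col3a1 and Dcn were all detected and their summed UMIs exceeded those of keratin, endothelial and immune markers. This gave 2719 fibroblasts, of which 180 were in wild-type libraries (54, 24, 46 and 56 in libraries 1, 2, 5 and 6) and 2539 in deleted libraries (1685, 119, 354 and 381 in libraries 3, 4, 7 and 8). By like rules 10147 cells were malignant, 84 endothelial and 13082 immune, and 3464 had no class. The small numbers of fibroblasts in wild-type hosts limit every fibroblast value below. Libraries 1 to 4 and libraries 5 to 8 formed separate sets by their cell barcodes, with 16 barcodes shared between libraries of the first set, 161 within the second and 3 across sets. Each set held 2 libraries of each genotype, so values are also given within sets.

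Fibroblast markers beyond those of the gate were detected in the fibroblasts of every library, namely Col1a2, Lum and Pdgfra. With Col1a1, Col3a1 and Dcn they summed to between 297 and 601 UMIs per 10000. The gate required these last 3 genes, so their part of the sum was built in. Mural cells (pericytes and vascular smooth muscle) also express contractile genes, and their 7 markers summed to 0.0310 to 0.494 UMIs per 10000 in fibroblasts, with Higd1b at 0 in every library. The sum was highest in wild-type library 6 (0.494) and deleted library 8 (0.458), then wild-type library 5 (0.337), and lowest in deleted library 7. Its part in the levels of the contractile genes was not tested. The gate was not free of other RNA. Immune markers summed to 21.3 and 17.1 UMIs per 10000 in fibroblasts of deleted libraries 3 and 4 and to 1.66 to 7.66 elsewhere. Skeletal muscle genes stood at 7.68 in deleted library 3 and at 0.274 or below in the others, and malignant markers were highest in wild-type libraries 1 (5.37) and 2 (7.58).

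In fibroblasts, 6 of the 7 contractile genes had a lower mean in deleted than in wild-type hosts by 1.83 to 6.99 times, and the seventh, Cnn1, was too scarce to compare. All levels are UMIs per 10000 UMIs of a cell, averaged over the fibroblasts of a library. The actin gene Acta2 had values of 1.25, 0.551, 4.26 and 4.70 in the wild-type libraries (1, 2, 5, 6), while the deleted libraries (3, 4, 7, 8) had 0.228, 1.06, 0.0938 and 1.03. Wild-type libraries 5 and 6 were high, and wild-type library 2 lay below deleted libraries 4 and 8, so the genotypes overlapped. The means were 2.69 ± 2.09 and 0.602 ± 0.513 (SD, n = 4 each), a log2 difference of -1.37 on the scale log2(level + 0.5), which understates the change of scarce genes.

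**Figure D1:**
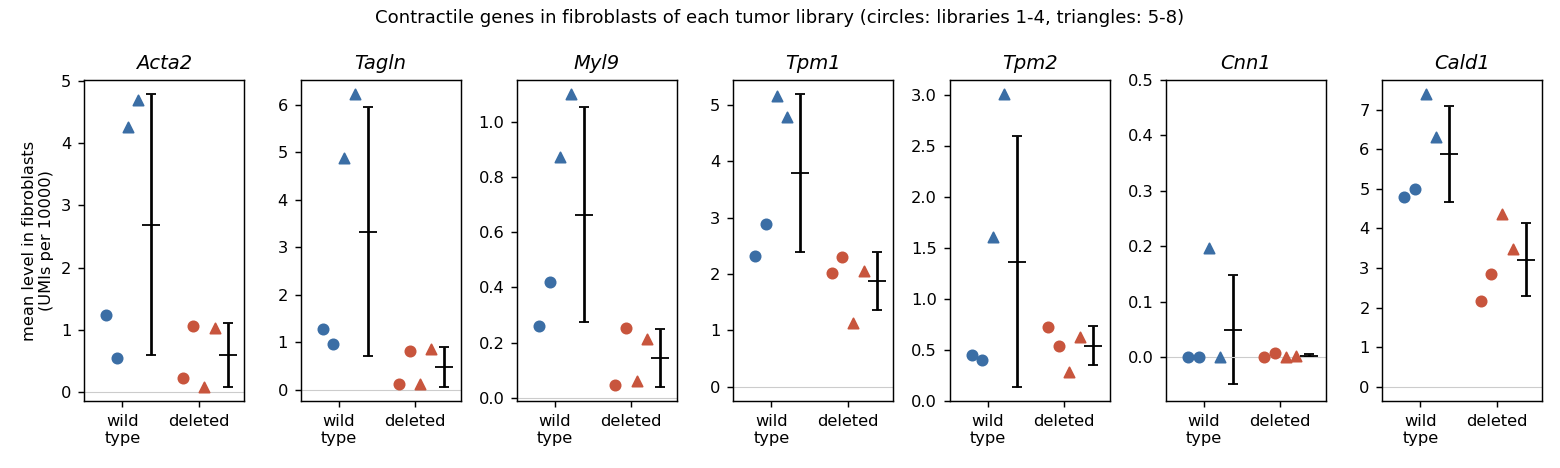
Mean level of each contractile gene in fibroblasts, in UMIs per 10000 (linear axis, different range in each panel), with 1 point per tumor library, grouped by host genotype. Bars give the mean and SD of 4 libraries; circles are libraries 1 to 4 and triangles libraries 5 to 8. The blue triangles, wild-type libraries 5 and 6, are the 2 highest values of Acta2 (4.26 and 4.70), Tagln (4.87 and 6.21) and Tpm2 (1.61 and 3.01).

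Transgelin, the product of Tagln, binds actin filaments and is one of the most abundant proteins of smooth muscle. In the same order, wild-type libraries had 1.27, 0.956, 4.87 and 6.21, while deleted libraries had 0.119, 0.809, 0.112 and 0.863. Every deleted library lay below every wild-type library, although wild-type library 2 and deleted library 8 were close. The means were 3.33 ± 2.62 and 0.476 ± 0.417 (SD, n = 4 each), with a log2 difference of -1.77. Myl9, the light chain, measured 0.260, 0.420, 0.875 and 1.10 in wild-type hosts, against 0.0472, 0.254, 0.0619 and 0.212 after deletion. Wild-type library 1 and deleted library 4 nearly met, and these values rest on 12 and 38 UMIs. The log2 difference was -0.81.

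The 2 tropomyosin genes, whose proteins lie along the actin filament, behaved less alike. Tpm1 measured 2.32, 2.90, 5.17 and 4.79 in wild-type hosts, against 2.02, 2.31, 1.14 and 2.06 after deletion. The groups only just failed to overlap, since wild-type library 1 and deleted library 4 lay side by side. Tpm2 measured 0.454, 0.400, 1.61 and 3.01 in wild-type hosts, against 0.725, 0.538, 0.288 and 0.628 after deletion. Wild-type libraries 1 and 2 lay among the deleted ones, and libraries 5 and 6 stood above them all. The log2 differences were -0.82 for Tpm1 and -0.62 for Tpm2, and the latter was -0.24 without wild-type library 6.

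Caldesmon, encoded by Cald1, inhibits actomyosin and is present in muscle and non-muscle cells. Cald1 measured 4.80, 4.99, 7.38 and 6.31 in wild-type hosts, against 2.17, 2.86, 4.35 and 3.47 after deletion, with no overlap. The means were 5.87 ± 1.21 and 3.21 ± 0.927 (SD, n = 4 each). The log2 difference was -0.79. Malignant cells held Cald1 at 6.55 and 8.53 in wild-type libraries 1 and 2. Malignant markers summed to 38.3 and 42.5 in malignant cells of these libraries. In fibroblasts they summed to 5.37, 7.58, 2.01 and 0.0527 in wild-type hosts (1, 2, 5, 6). After deletion (3, 4, 7, 8) they summed to 0.404, 2.49, 0.0241 and 0.0281. The part of malignant RNA in the Cald1 and Tpm1 levels of fibroblasts was not tested. Cnn1, which encodes the calponin of smooth muscle, gave 5 UMIs in fibroblasts of wild-type library 5 and at most 3 in any other library. Its row is not listed in the matrices of libraries 1 and 7, where it was read as 0, and it did not pass the filter for testing.

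Tagln, Myl9, Tpm1 and Cald1 were thus the members for which every deleted library lay below every wild-type library. The same held for 2.01% of the 9009 genes tested in fibroblasts, and nothing is read from the members' count because the genotype contrast had chosen them. With a stricter gate, in which the sums of other classes were at most 0.1 of the fibroblast sum, only Cald1 kept this separation. Tagln then reached 1.23 in deleted library 4, above 1.04 and 1.05 in wild-type libraries 2 and 1. Thinning every cell to 1000 UMIs also ended it for Tagln (1.05 in deleted library 8 against 1.02 in wild-type library 1). Fewer myofibroblasts among the fibroblasts and less RNA of these genes in each cannot be told apart from class means alone. Whether malignant RNA in wild-type fibroblasts had a part in the separation of Tpm1 and Cald1 was not tested.

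Within the barcode sets the size of the difference was uneven. Among libraries 1 to 4, Acta2 averaged 0.900 in wild-type and 0.644 in deleted hosts, and among libraries 5 to 8 it averaged 4.48 and 0.561. For Tagln the corresponding means were 1.11 and 0.464, then 5.54 and 0.487. For Tpm2 the order turned, with 0.427 below 0.631 in the first set and 2.31 above 0.458 in the second. Cald1 differed by a like amount in both sets, with 4.89 and 2.51 in the first and 6.84 and 3.91 in the second. The wild-type libraries carried the contrast between sets, since the deleted means of Acta2 and Tagln changed little from one set to the other.

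Skeletal muscle also makes tropomyosins, and cells without a class in deleted library 3, the library with muscle RNA, held 10.5 UMIs per 10000 of Tpm1 and 7.47 of Tpm2. With every cell that had a UMI of a skeletal muscle gene left out, an alternative chosen after seeing the data, Tpm2 in fibroblasts of library 3 fell from 0.725 to 0.328 and Tpm1 from 2.02 to 1.58. This step kept 767 of the 1685 fibroblasts of library 3, and their median depth fell from 5874 to 3923 UMIs. The log2 differences between genotypes were then -0.79 for Tpm2 and -0.94 for Tpm1.

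Acta2 and Tagln were concentrated in few fibroblasts. The median fibroblast had no UMI of Tagln in any library and none of Acta2 in 7 of the 8 libraries, the exception being wild-type library 6. A level of at least 10 UMIs per 10000 of Acta2 was reached by 19 of 180 fibroblasts in wild-type hosts and by 17 of 2539 in deleted hosts. Per library this was 9.31% ± 7.98 and 0.998% ± 0.902 (SD, n = 4 each). For Tagln such cells numbered 23 and 15. Deleted library 8 held a fibroblast with 64.7 UMIs per 10000 of Acta2, above the 51.7 of the highest wild-type cell, so strongly positive cells occurred in both genotypes. Cald1 was spread more broadly, and its median was above 0 in all 8 libraries, with 1.16 as its lowest value, in deleted library 3, and 6.95 as its highest, in wild-type library 5.

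Depth differed between libraries, with medians of 2883 to 11346 UMIs per fibroblast, so the share of positive cells was also counted at 1000 UMIs per cell. At this depth 14.2% ± 7.56 of wild-type and 3.68% ± 2.78 of deleted-host fibroblasts had a UMI of Acta2, and 15.1% ± 10.6 and 2.87% ± 2.01 had one of Tagln (SD, n = 4 each). Without thinning the shares for Acta2 were 31.4% ± 13.5 and 10.6% ± 6.95. In immune cells, which should lack Acta2, 0.654% ± 0.597 and 0.938% ± 0.701 had a UMI at the same depth (SD, n = 4 each). The shares in fibroblasts were thus above this background in both genotypes. Thinning left out 13 wild-type and 228 deleted-host fibroblasts with fewer UMIs.

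Fibroblasts with Acta2 more often had a UMI of the other members, except that Cnn1 was higher in only 3 of 8 libraries. Among fibroblasts with a UMI of Acta2, 55.5% ± 20.6 also had one of Tagln, against 6.04% ± 3.74 of those without (SD, n = 8), and the share was higher in 8 of 8 libraries. It was lowest in deleted libraries 3 (19.5%) and 4 (30.4%). For Myl9 the shares were 39.8% ± 22.8 and 7.20% ± 3.88, and for Tpm2 58.4% ± 23.3 and 20.1% ± 7.15, again higher in 8 of 8 libraries. Acta2-positive fibroblasts were deeper, with a median of 10313 ± 3996 UMIs against 5523 ± 2770 (SD of library medians, n = 8), and the part of depth in these shares was not tested. They were the deeper cells in every library except wild-type library 5.

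Across single fibroblasts, the mean over 6 libraries of the correlation with Acta2 (Pearson's r of deposited values) was 0.642 for Tagln, with a range from 0.407 to 0.844, and 0.353 for Myl9. Both were detected in under 10% of the 2719 pooled fibroblasts, of which 1685 came from deleted library 3, and were not ranked. In wild-type library 6 Tagln was detected in 41.1% of fibroblasts and Myl9 in 30.4%. Among the 4261 genes detected in at least 20% of fibroblasts, Cnn2 (0.366), Tpm2 (0.362), Tnc (0.356), Actn1 (0.333), Csrp1 (0.325), Tpm1 (0.315), Col12a1 (0.303) and Tpm4 (0.303) were most like Acta2. Libraries differed widely, and only libraries 1 and 6 of those used were wild type. From deleted library 7 to wild-type library 6 the correlation ran from 0.0237 to 0.745 for Cnn2 and from 0.0266 to 0.737 for Tpm1. Cald1 ranked 16 with 0.234. Cnn2, Actn1, Csrp1 and Tpm4 encode actin-binding proteins, and Tnc and Col12a1 encode matrix proteins. These values describe cells that share a library and its depth, and they carry no test.

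Malignant cells, which came from the injected line and carried intact Atg7 in both groups, held Tpm1 at levels like those of fibroblasts. They held more Cald1 than fibroblasts in most libraries, and little of the other members. For Tpm1 the wild-type libraries (1, 2, 5, 6) had 3.08, 4.65, 3.28 and 3.74 UMIs per 10000, against 2.66, 1.95 and 3.70 in deleted libraries 4, 7 and 8. Deleted library 3 had 11 malignant cells and was left out. The genotypes overlapped, and the log2 difference of -0.38 ± 0.27 (SE) did not pass (limma, adjusted p = 0.593).

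Cald1 in malignant cells measured 6.55, 8.53, 6.79 and 7.04 in wild-type hosts, against 6.50, 6.94 and 5.03 after deletion. The log2 difference was -0.22 ± 0.28 (SE) and did not pass (limma, adjusted p = 0.772). Tpm2 averaged 0.218 ± 0.0521 (SD, n = 4) and 0.324 ± 0.180 (SD, n = 3), with a log2 difference of 0.18 ± 0.15 (SE; limma, adjusted p = 0.654). None of these 3 members was called, where 0.123% of the 9738 genes tested were, all lower in deleted hosts. Whether the genotype effect differed between fibroblasts and malignant cells was not tested. Acta2 reached at most 0.123, Myl9 0.0381 and Tagln 0.00769 in any malignant library, and these genes and Cnn1 did not pass the filter there.

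**Figure D2:**
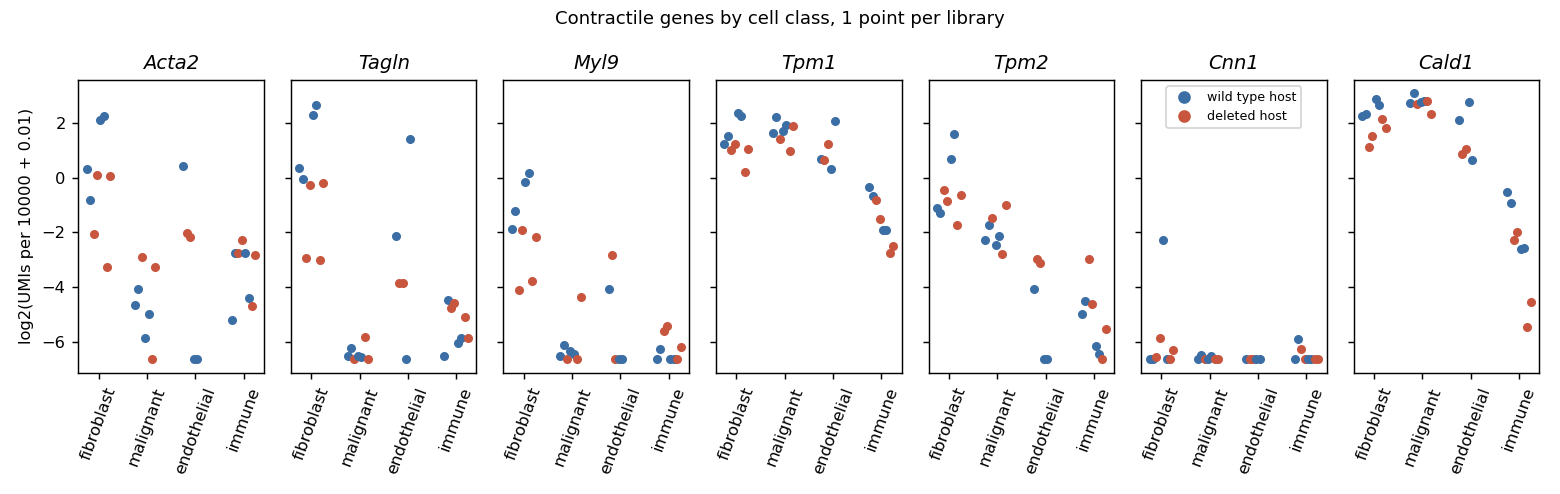
Level of each contractile gene by cell class on a log2 axis (UMIs per 10000 plus 0.01), with 1 point per library that held at least 20 cells of the class (5 for endothelial cells), colored by host genotype. Acta2, Tagln and Myl9 sit highest in fibroblasts and near the bottom of the axis in malignant cells. Tpm1 is about as high in malignant cells as in fibroblasts, and Cald1 is higher in malignant cells in most libraries.

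Within the same 7 libraries, Tpm2 was higher in fibroblasts than in malignant cells by a log2 difference of 0.77 ± 0.22 (SE; limma, adjusted p = 0.0113) and in 7 of 7 libraries. Of the 10864 genes tested, 23.1% were higher and 22.3% were lower in fibroblasts. Acta2, Tagln and Myl9 passed the filter on low values only through fibroblasts, so a difference was built into their being tested and their values are a description. The log2 differences were 1.95 for Tagln, 1.74 for Acta2 and 0.82 for Myl9. Tpm2 did not pass when genes were not filtered (adjusted p = 0.10).

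The other 2 members tested were not called higher in fibroblasts. Cald1 was lower in fibroblasts by a log2 difference of -0.47 ± 0.16 (SE; limma, adjusted p = 0.0262) and higher in 1 of 7 libraries. That call was lost without wild-type library 2 (adjusted p = 0.0704), deleted library 4 (0.0803) or deleted library 8 (0.0564), and over 19 alternatives its adjusted p ran from 0.0160 to 0.111. Tpm1 did not differ beyond error, with -0.22 ± 0.17 (SE; limma, adjusted p = 0.328) and a higher value in fibroblasts of 2 of 7 libraries. Only with averaged logarithms did it pass (adjusted p = 0.0261). Cells with no class were left out of both sides.

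Endothelial cells were too few to test, since no wild-type library held 20 of them. In libraries with at least 5, namely 2, 3, 4, 5 and 6, their 6 markers were all detected, but the gate used the sum of these same genes. Acta2 was at 1.32, 0.238, 0.212, 0 and 0 UMIs per 10000. Tagln was at 0.217, 0.0595, 0.0598, 0 and 2.66. The Acta2 value above 1 came from 16 UMIs in wild-type library 2, where 33.3% of 9 cells had one. The Tagln value above 1 came from 6 UMIs in wild-type library 6, where 11.1% of 9 cells had one. A count of 0 in library 5 allowed up to 0.622 UMIs per 10000 (3 UMIs of its 10 endothelial cells). Cald1 ran from 1.55 to 6.71, Tpm1 from 1.22 to 4.17, and Cnn1 was not detected.

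Across the 4 named classes, with cells of no class left out, the mean level of Acta2 was highest in fibroblasts (1.65 ± 1.80 SD, n = 8 libraries), followed by endothelial cells (0.355 ± 0.553, n = 5), immune cells (0.103 ± 0.0661, n = 8) and malignant cells (0.0462 ± 0.0460, n = 7). Tagln and Myl9 were also highest in fibroblasts and second in endothelial cells, where Tagln was above 0.217 only in wild-type library 6 (2.66). Cells without a class averaged 0.529 ± 0.584 for Acta2 (n = 8), above endothelial cells. Neighbors in these orders overlapped in their spread. Tpm1 was highest in malignant cells (3.29 ± 0.862), then fibroblasts (2.84 ± 1.41), endothelial cells (2.18 ± 1.19) and immune cells (0.388 ± 0.234), and only the immune value stood clearly apart. Cald1 followed the same order, from 6.77 ± 1.03 in malignant to 0.249 ± 0.234 in immune cells.

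The share of each gene's RNA held by a class followed the makeup of the tumors. In wild-type hosts malignant cells held 96.2% ± 1.22 of all Cald1 UMIs and 94.9% ± 1.79 of Tpm1 UMIs, and fibroblasts 0.928% ± 0.382 and 1.15% ± 0.328 (SD, n = 4). In deleted hosts, where fibroblasts made up 23.0% ± 19.5 of cells against 1.22% ± 0.765, fibroblasts held 57.6% ± 29.04 of Cald1 and 41.9% ± 15.8 of Tpm1 UMIs. Fibroblasts held 57.7% ± 32.9 of Tagln UMIs in wild-type and 77.0% ± 14.1 in deleted hosts. Of Acta2 UMIs they held 35.6% ± 23.7 and 59.7% ± 11.8, and malignant cells held 24.5% ± 8.53 and 0.741% ± 0.880. Contractile RNA also lay outside the gates. In wild-type library 2 cells without a class held 69.5% of Tagln and 51.2% of Acta2 UMIs, more than fibroblasts did. In deleted library 3 they held 54.7% of Myl9 and 53.1% of Tpm2 UMIs, also more than fibroblasts, and 39.3% of Acta2 UMIs. The tumors had been dissociated and their cells separated by density before capture, steps that can alter which cells are recovered.

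Fibroblasts were next divided by Pi16 and Dpp4, markers of a fascial, progenitor-like fibroblast state that is usually set against the myofibroblast. Of the 2719 fibroblasts, 1612 had a UMI of either gene. Cells with and without were compared in the 6 libraries that held at least 20 of each. Acta2 was lower in positive cells in all 6, at 0.450 against 7.19 in wild-type library 5, 2.87 against 5.80 in wild-type library 6, and 0.247 against 2.04 in deleted library 4. In deleted library 8 the values were 0.227 and 1.96, and in deleted libraries 3 and 7 they were close, at 0.186 and 0.286 and at 0.0871 and 0.119. The log2 difference of -1.29 ± 0.30 (SE) did not pass over all genes (limma, adjusted p = 0.106). It did with a pseudocount of 0.1 (adjusted p = 0.0448) and with the 3 marker genes alone as the gate (0.0403), and its range over 19 alternatives was 0.0403 to 0.677. The gate of marker genes alone also let in wild-type library 1, with 39 positive and 21 negative cells. With the strict gate the difference was -0.80, without wild-type library 5 (19 positive cells) and deleted library 4 (15 negative cells).

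**Figure D3:**
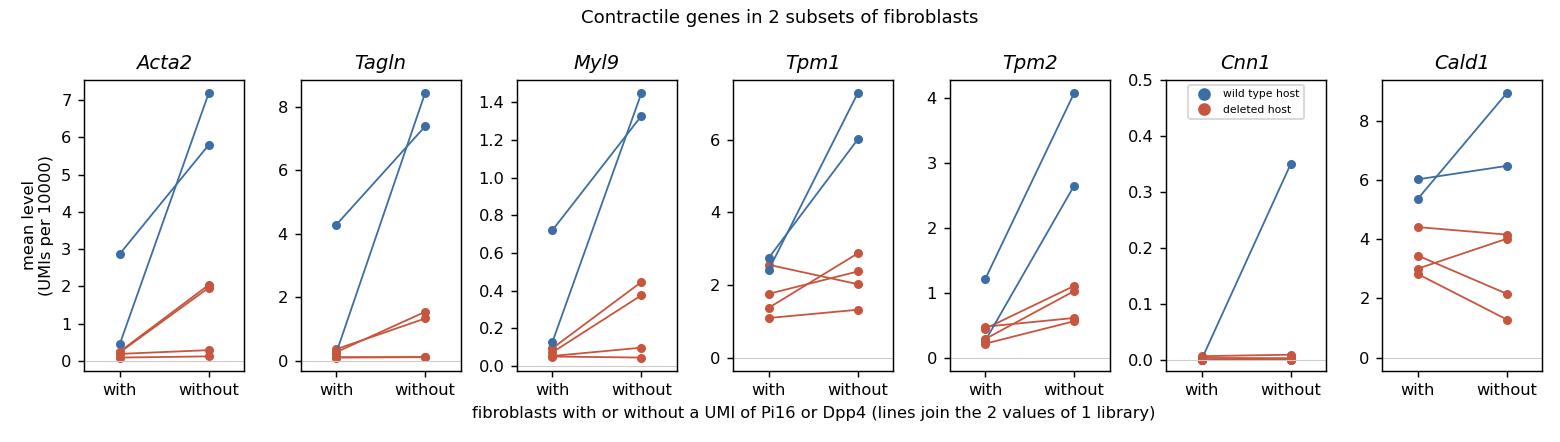
Level of each contractile gene (UMIs per 10000, linear axis, different range in each panel) in fibroblasts with and without a UMI of Pi16 or Dpp4, with a line joining the 2 values of each of 6 libraries, colored by host genotype. The lines of Acta2 and Tpm2 rise toward the cells without these markers in 6 of 6 libraries, and those of Cald1 rise in 3 and fall in 3.

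Tpm2 was also lower in positive cells in 6 of 6 libraries, by a log2 difference of -0.99 ± 0.21 (SE; limma, adjusted p = 0.0649, range 0.00699 to 0.628 over 19 alternatives). Without deleted library 4 it passed (limma, adjusted p = 0.0314). Without cells holding skeletal muscle UMIs the difference was -0.39 (limma, adjusted p = 0.365). That fit held deleted libraries 3, 4, 7 and 8 alone, because wild-type libraries 5 and 6 kept only 17 and 19 positive cells. The part of muscle RNA and of the change of libraries in this lower value cannot be told apart. Tagln (-1.14 ± 0.35, adjusted p = 0.229), Myl9 (-0.60 ± 0.19, 0.233) and Tpm1 (-0.59 ± 0.21, 0.299) were lower in positive cells in 5 of 6 libraries and did not pass in limma. Cald1 did not follow the other members, with 0.07 ± 0.20 (limma, adjusted p = 0.932) and a higher value in 3 of 6. None of the members was called, where 0.326% of 10439 genes were higher and 0.0575% lower. Besides Pi16 and Dpp4 themselves, 5 of the 6 other fascial markers were called, and Clec3b (2.01), Sema3c (1.84), Cd55 (1.66) and Cd34 (1.43) led them. The TGF-beta receptor gene Tgfbr2 was higher (0.95) and Inhba, which encodes the activin beta A chain, lower (-1.13).

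Depth and immune RNA moved with this division. Cells without a UMI of Pi16 or Dpp4 were shallower in 5 of the 6 libraries, most of all in deleted libraries 3 and 4 (medians of 2419.5 and 2110.5 UMIs against 12904 and 13791) and also in deleted library 7 (1686 against 3205). In wild-type library 6 they were deeper (7144 against 3960). Tyrobp, an immune gene, was lower in positive cells by -1.21 (limma, adjusted p = 0.0221), and all 7 immune markers had a difference below 0. The part of either in the values of the contractile genes was not tested. With cells thinned to 1000 UMIs, only 2 genes were called in place of 40. The libraries changed as well. Wild-type library 1 entered with 24 positive cells, and wild-type libraries 5 and 6 dropped out with 12 and 10.

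The fraction of fibroblasts with a UMI of Pi16 or Dpp4 did not pass a test between genotypes. At 1000 UMIs per cell it was 31.6% ± 12.5 in wild-type and 36.9% ± 13.95 in deleted hosts (SD, n = 4 each, exact permutation p = 0.571, two-sided, where 0.0286 is the smallest p that 4 against 4 libraries allow). Without thinning it was 48.7% ± 15.9 and 61.2% ± 11.8 (exact permutation p = 0.314), and with the strict gate and no thinning the difference reached 22.1 percentage points (exact permutation p = 0.0857). Without deleted library 7, the highest at 57.0%, the thinned difference turned from 5.22 to -1.48 percentage points. Within the Pi16- and Dpp4-negative cells, Tagln averaged 5.26 ± 3.18 in wild-type and 0.782 ± 0.766 in deleted hosts, and Acta2 4.18 ± 2.83 and 1.10 ± 1.04 (SD, n = 4 each). Wild-type libraries 1 and 2 entered with 15 and 14 such cells.

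Among the remaining contractile and actin-binding genes no difference between genotypes was called in fibroblasts. Of 33 such genes 26 were tested, and 19 had a difference below 0, with a median log2 difference of -0.16 where the median of all 9009 genes was 0.04. In all, limma called 1 gene higher and 1 lower in fibroblasts of deleted hosts (0.0111% each, 0.0222% together), and 1003 had an unadjusted p under 0.05. The most abundant members of the list, the cytoplasmic actins Actb and Actg1, overlapped between genotypes. Actb had 26.3 ± 3.18 UMIs per 10000 in wild-type hosts against 28.2 ± 6.84 after deletion, and Actg1 22.1 ± 5.78 against 19.3 ± 8.63 (SD, n = 4 each). Chosen after its values were seen, Csrp2, which encodes a LIM protein of smooth muscle, had the lowest difference of the list (-1.16), with 3.39 ± 2.47 and 1.15 ± 0.763 UMIs per 10000.

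**Figure D4:**
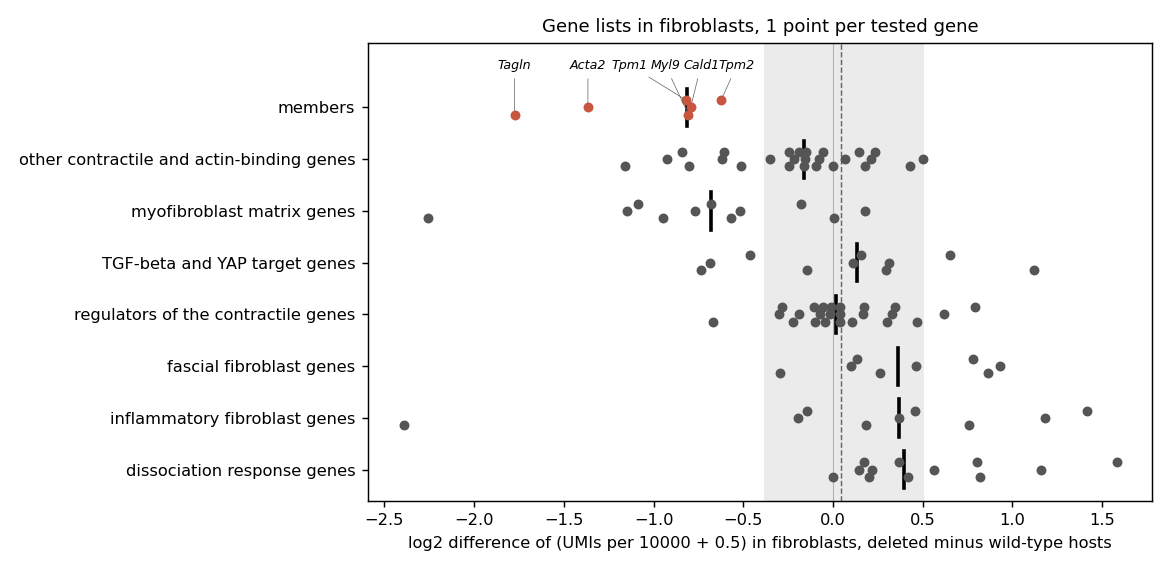
Difference between genotypes in fibroblasts for each tested gene of 8 lists, as log2 of (UMIs per 10000 + 0.5), deleted minus wild type; black bars are list medians, the dashed line is the median of all tested genes (0.04), and the grey band spans their 5th to 95th percentile (-0.38 to 0.50). The contractile members and most matrix genes lie to the left of the band, and the regulators are spread on both sides of 0. The members had been chosen by this same contrast, so their place outside the band is a description and no test.

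The regulators of these genes were not shifted as a list. Of 25 measured, 24 were tested in fibroblasts, 12 lay below and 12 above 0, the median was 0.01 and none was called. Klf4, a transcription factor that represses smooth muscle genes, had 7.66 ± 2.35 UMIs per 10000 in wild-type and 11.8 ± 2.36 in deleted hosts, and Tgfbr2 had 3.75 ± 0.192 and 3.93 ± 0.941 (SD, n = 4 each). Targets of TGF-beta and YAP had a median of 0.13 over 10 genes tested, with 4 below 0. Fn1, which encodes fibronectin, had 28.8 ± 11.0 and 32.7 ± 15.6, and Cyr61, a YAP target, 6.14 ± 2.01 and 11.4 ± 8.81. In these values the genotypes overlapped.

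Matrix genes of myofibroblasts lay lower in deleted hosts in 9 of 11 tested, with a median log2 difference of -0.68 and none called. Sparc had 98.8 ± 2.16 and 68.9 ± 21.4 UMIs per 10000 and Postn, which encodes periostin, 21.2 ± 4.17 and 13.8 ± 7.98 (SD, n = 4 each). In both genes deleted libraries 3 and 7 were low, as they were for Acta2 and Tagln, with Postn at 6.90 and 7.52 there and at 17.3 and 23.4 in deleted libraries 4 and 8. Chosen after its values were seen, Col8a1 had the lowest difference of the list (-2.25; limma, adjusted p = 0.0586), with 7.91, 2.55, 2.89 and 4.51 UMIs per 10000 in wild-type hosts against 0.247, 0.675, 0.0695 and 1.19 after deletion.

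No gene of 3 other fibroblast lists was called. Of 8 fascial genes 7 lay above 0 (median 0.36), with Dpt at 8.19 ± 2.75 and 15.0 ± 3.95 and Pi16 at 6.46 ± 3.796 and 7.96 ± 4.20 UMIs per 10000 in wild-type and deleted hosts. Of 9 inflammatory genes 6 lay above 0 (median 0.37), with the complement gene C3 at 10.7 ± 8.33 and 24.1 ± 11.3 and the chemokine gene Ccl2 at 16.8 ± 3.47 and 16.3 ± 6.75 (SD, n = 4 each). The fascial sum was highest in deleted library 7 (78.0 UMIs per 10000), where the other deleted libraries had 37.6 to 44.1 and wild-type libraries 27.0 to 39.4. The inflammatory sum was lowest in deleted library 4 (46.5) and ran from 59.5 to 77.5 in wild-type and from 89.2 to 111 in the other deleted libraries. Genes that respond to tissue dissociation lay above 0 in 11 of 12 (median 0.39), and their sum ran from 48.8 to 123 in wild-type and from 111 to 160 UMIs per 10000 in deleted libraries. The part of dissociation in the contractile genes was not tested.

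Between the cell classes the same lists were further apart. All 12 matrix genes were higher in fibroblasts than in malignant cells, led by Postn (5.14), Sparc (5.02), Thy1 (3.34) and Col12a1 (3.30). Only 4 of these 12 passed the filter on low values in malignant cells. So did 9 of the 11 TGF-beta and YAP targets and 24 of the 25 regulators. The rest entered only through fibroblasts, so a difference was built into their being tested. Of 11 TGF-beta and YAP targets 9 were higher, among them Fn1 (5.17), Lox (3.83) and Cyr61 (2.31), and Ankrd1 was lower (-1.39). Of the 25 regulators 12 were higher and 1 lower, with Tgfbr2 (2.06), Tgfbr3 (1.29), Klf4 (1.08) and Tgfb2 (0.99) first among the higher ones and Tead4 (-0.52) the lower one. The other contractile and actin-binding genes divided, with 7 higher and 8 lower of 26, and the largest differences were in Csrp2 (1.65), Myh9 (-1.003), Lpp (0.80) and Actn1 (-0.79). All are log2 differences from limma over the 10864 genes tested, of which 23.1% were called higher and 22.3% lower in fibroblasts. For genes that entered only through fibroblasts the values are a description. The others counted here as higher or lower were called.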

How the data were processed

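Values were deposited as the natural log of 1 plus a gene's UMIs per 10000 UMIs of its cell, as the values themselves show. Per the submitters' processing notes, the authors used Cell Ranger 2.1, Seurat 3.0 and mm10. How reads shared by actin or tropomyosin paralogs were assigned is not given in the sources used here. All values were whole UMIs within a tolerance of 0.01, and whole UMIs were recovered. Symbols matched GENCODE M21 for 18773 of 19024.

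Cells were classed by marker UMIs without the contractile genes; ties had no class, and no doublet caller was run. Levels were averaged over the cells of a class with at least 20 cells per library. With limma 3.58.1 in R 4.3.3 (trend), log2(level + 0.5) was compared between genotypes, or within libraries against 0, with Benjamini-Hochberg adjustment over all genes detected in 5% or more of the cells, in a number of libraries no lower than the size of the smaller group. A gene was called at an adjusted p under 0.05. Scripts were tested on simulated data. The floor given for a count of 0 covers counting error only, and the SD and SE values come from the spread between libraries.

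Members and lists were chosen with earlier results of these data known. Besides the members, genes were named where they were called (up to the 4 largest differences per list) or, in a list with none, as the 2 with the highest level. One gene that this rule names is not reported here. Mural, endothelial, malignant, immune and skeletal muscle lists served as checks on the gate. Alternatives changed the pseudocount, filter, averaging, gate, depth, cell minimum and libraries.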

Additional observations from a re-analysis of the deposited data

Results flagged for a closer look

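Each member was compared among the 4 libraries of a genotype, in fibroblasts and malignant cells, for a library far from the others. In 21 groups that could be tested 2 were marked, and chance marks about 1 in 20. Cnn1 in fibroblasts stood at 0.197 UMIs per 10000 in wild-type library 5, from 5 UMIs, and at 0 in the other 3 wild-type libraries. Tagln in malignant cells stood at 0.00338 UMIs per 10000 in wild-type library 2, from 7 UMIs, and between 0.000697 and 0.000826 in the other 3. Those came from only 2, 1 and 4 UMIs in libraries 1, 5 and 6, so the closeness of their levels rests on very few counts. In both the gap to the nearest library was nearly the whole range of the group.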

How the results depend on the processing

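No paired analysis was possible because the genotypes share no replicate numbers. In fibroblasts, over up to 20 alternatives, the difference between genotypes ran from -1.95 to -0.66 for Acta2, -2.53 to -0.65 for Tagln, -1.59 to -0.30 for Myl9, -1.12 to -0.65 for Tpm1, -0.90 to -0.21 for Tpm2 and -1.02 to -0.56 for Cald1. All of these were below 0. The call of higher Tpm2 in fibroblasts than in malignant cells held under 18 of 19 alternatives and was lost without the filter. Tpm2 in malignant cells turned to -0.0025 with averaged logarithms. Cald1 between Pi16- or Dpp4-positive and negative cells turned to -0.15 with summed UMIs. It turned to -0.18 with thinned cells, where wild-type library 1 replaced wild-type libraries 5 and 6. It turned to -0.10 without deleted library 3 and -0.035 without deleted library 4, and ran up to 0.22 when another library was left out. The share of fibroblasts with these markers differed by -1.48 to 11.0 percentage points when 1 library was left out and turned without deleted library 7.

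Counts of genes called moved more. Between genotypes in fibroblasts, 2 genes became 5 with a pseudocount of 0.1, 1 with a pseudocount of 1, 1 with averaged logarithms, 1 without cells holding muscle UMIs (chosen after seeing the data), 4 with the strict gate, 4 without cells over 4500 genes, 28 with a library set term, and 0 without the filter, with thinned cells or with at least 50 cells per library. Leaving out 1 library gave 0 (wild-type library 1 or 2) to 12 (deleted library 8). In malignant cells, 12 became 49, 4, 104 and 6 under the first 4 of these, 64 without the filter, 36 with the marker genes alone as gate, 7 with thinned cells, 114 with the set term and 0 (deleted library 7 or 8) to 12 without 1 library. Fibroblasts against malignant cells gave 1848 in place of 4937 with thinned cells and 4356 to 4937 without 1 library. Pi16- or Dpp4-positive against negative fibroblasts gave 40, which became 68, 26, 137 and 6 under the same first 4, 64 with summed UMIs, 147 with the marker genes alone, 3 with the strict gate or at least 50 cells, 2 with thinned cells, 1 without the filter and 3 to 43 without 1 library, the lowest being 3 without wild-type library 6 and 5 without wild-type library 5. The causes were not tested, except that thinning leaves fewer genes to test. In some comparisons a change of gate, depth, cell minimum or muscle filter also changed which libraries held enough cells. The comparison between genotypes in endothelial cells and all its alternatives were not run, because no wild-type library held 20 such cells. Few fibroblasts in wild-type hosts, 24 to 56 per library, and few UMIs of Myl9 and Cnn1 limit their values.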
